A study of Rattus norvegicus with 12 samples.

Results

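A set of 10 genes of interleukin-6 (IL-6) family signaling were followed across the nerve, the ganglia and the spinal cord of rats whose sciatic nerve had received a myelin peptide. They were the ligands Il6, Lif, Cntf and Osm, the receptor chains Il6r, Lifr and Osmr, the shared chain Il6st (gp130), the transducer Stat3 and the inhibitor Socs3. The members were chosen by name, through the RefSeq accession that the array gives for each probe. All 10 were found, each with 1 probe, among 15159 genes that could be named on the array. The number of copies of a probe on the array differed between members. Il6, Cntf and Il6r each had 10 spots, Lif, Osm, Osmr and Socs3 had 2, and Lifr, Il6st and Stat3 had 1.

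Total RNA was measured on 12 single-colour Agilent arrays, each a pool of 3 female rats aged 8 weeks and each the single array of its condition. Wild-type rats, labelled Sprague-Dawley, were sampled 12 days after the injection. Athymic nude rats (Hsd:RH-Foxn1rnu), which lack a thymus and its mature T cells but keep macrophages, natural killer cells and B cells, were sampled 7 days after it. The left sciatic nerve received 50 μg of the peptide MBP84-104 in 5 μL of PBS, and the right nerve received PBS alone. The dorsal root ganglia (DRG) of both sides were taken, and the left dorsal part of the lumbar cord was set against the same part rostral to the lumbar enlargement. Rat type, strain and day after injection differ together and cannot be told apart, and the control nerve had been injected too.

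IL-6 family cytokines are small secreted proteins that share gp130 as the signaling chain of their receptors. Binding brings Janus kinases together, which phosphorylate STAT3. STAT3 then moves to the nucleus and switches on, among others, acute-phase genes and Socs3, whose protein shuts the receptor down. In nerve, Cntf is stored by myelinating Schwann cells, while Il6, Lif and Osm are known to be made by Schwann cells, fibroblasts and leukocytes after injury.

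Il6 is shown first because it was the member that stood furthest apart between the injected and the contralateral nerve of wild-type rats, and its upstream sequence is printed with that of Osmr, the member next to it in that comparison. The 250 bases before the annotated start are given 5′ to 3′ on the strand of the gene (minus strand for both), from RefSeq on GRCr8. Il6 lies at chr4:5894576-5894825 and Osmr at chr2:57688562-57688811. Capitals mark a cyclic AMP response element (TGACGTCA, 162 bases before the start) and the start of an NF-kappaB element (GGGATTTTC, 68 bases before the start).
Il6: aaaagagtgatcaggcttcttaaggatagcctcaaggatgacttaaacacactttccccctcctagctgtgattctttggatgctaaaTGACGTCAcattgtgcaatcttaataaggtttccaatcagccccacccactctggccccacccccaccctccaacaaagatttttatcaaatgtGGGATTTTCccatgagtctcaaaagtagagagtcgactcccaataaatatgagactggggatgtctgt
Osmr: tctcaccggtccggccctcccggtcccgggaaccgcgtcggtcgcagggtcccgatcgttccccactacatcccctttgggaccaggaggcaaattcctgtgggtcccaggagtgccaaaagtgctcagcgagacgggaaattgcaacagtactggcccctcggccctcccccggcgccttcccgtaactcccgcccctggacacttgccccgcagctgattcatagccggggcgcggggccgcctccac

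Of the members, 8 had an entry in the promoter table, all but Lif and Osm. The motifs were searched on both strands of the same window. TGACGTCA occurred in 1.59% and GGGANTTTC, the start of the NF-kappaB element, in 0.953% of all 33469 promoters, and among the 8 members only Il6 held either. TTCNNNGAA, the spacing that STAT proteins bind, occurred in 7.67% of all promoters and in 0 of the 8. These are matches of letters and no measurement of binding.

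Signals are the processed values of the scanner software, after its background subtraction and before any scaling between arrays. Levels are given as log2 signal relative to the median probe of the same array, so that 0 is the brightness of a typical probe. A probe counted as measured on an array when the scanner software marked its spots as well above background. The dimmest such signal of an array is its floor, and a level below it was raised to it before a ratio was taken. A probe not above background on 1 of the 2 arrays gives only a bound ("at least"), taken from its own signal there or from the floor, whichever was higher. A bound taken from its own signal carries the error of that reading, so the true ratio could also be smaller. A bound entered a count only where it pointed to the array on which the gene was above background, in lists and over all genes alike. The median spot signal ran from 23.5 on the injected nerve of nude rats to 122 on the rostral cord of wild-type rats. Between 59.5% and 76.9% of spots were well above background, and no spot was saturated. All 6 nude arrays and both wild-type nerve arrays were on 1 slide, and the remaining 4 arrays on another, so in DRG and cord the slide and the rat type cannot be separated. The DRG arrays carried their defining transcripts, with 9 or 10 of 10 sensory neuron markers above background and a summed signal between 734 and 834 times the array median, against at most 29.9 times in nerve and cord. Of 10 T cell markers, between 2 and 5 were above background on the nude arrays and between 4 and 8 on the wild-type arrays, and Cd3e was above background on none of the 12.

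**Figure D1:**
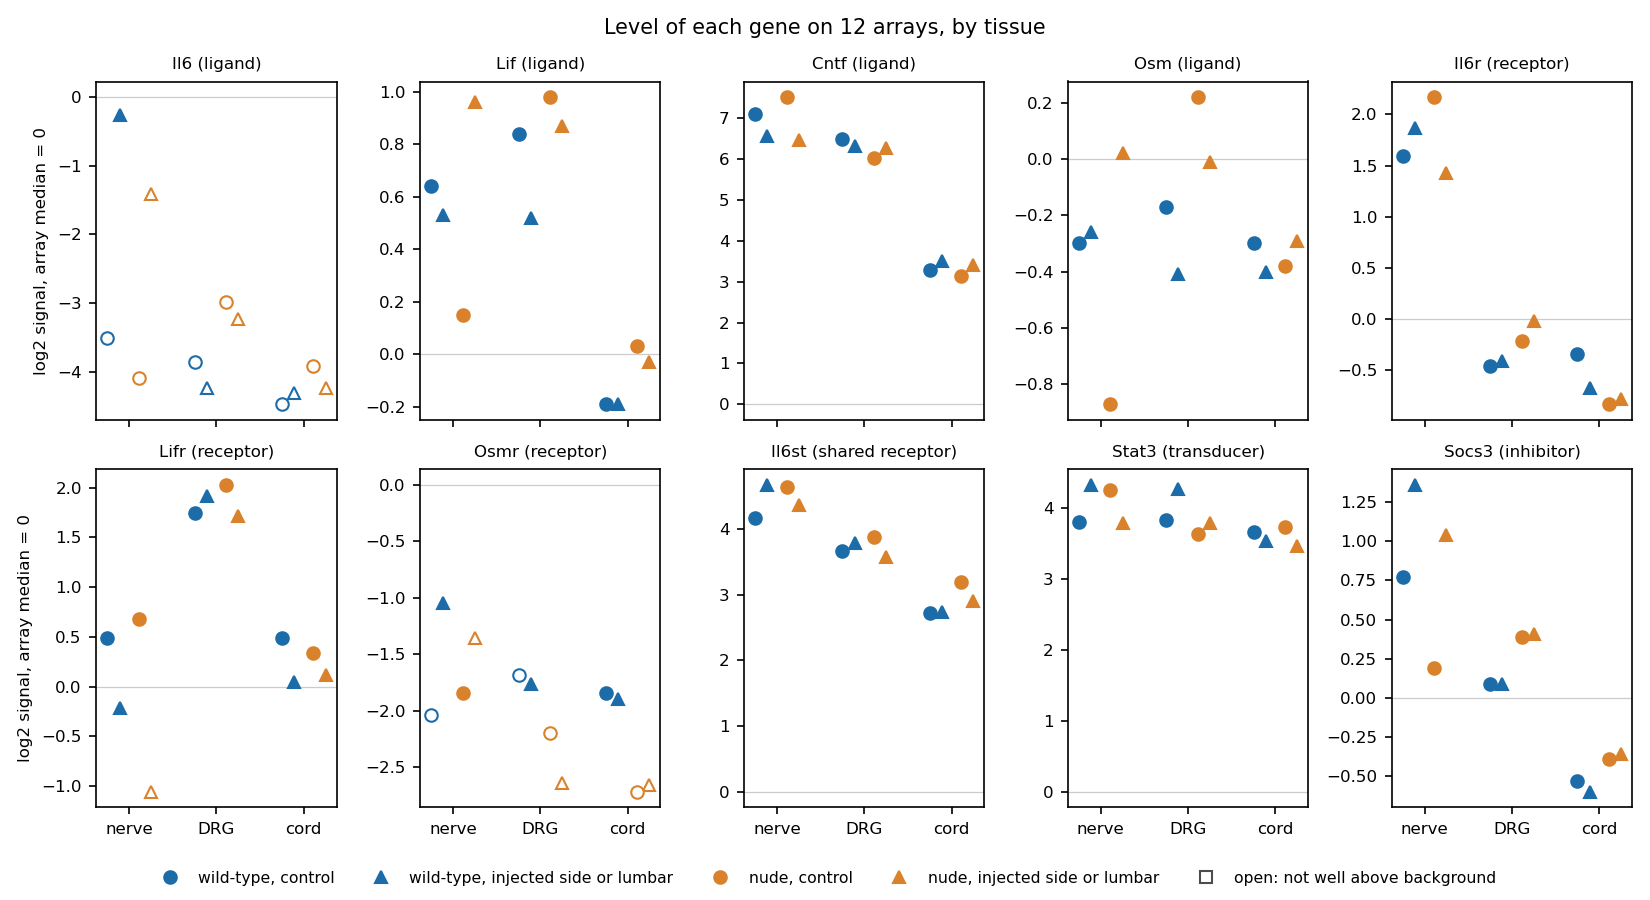
Level of each of the 10 genes on the 12 arrays (y axis, log2 signal with the array median at 0; each panel has its own range), by tissue (x axis), rat type (colour) and side (triangle for the injected side or lumbar cord, circle for its control); open symbols were not well above background. Il6 was above background only on the injected nerve of wild-type rats, Cntf lay lowest in the cord and Lifr highest in DRG.

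Il6, the founding ligand of the family, was well above background on 1 array of 12, the injected nerve of wild-type rats. Its signal there was 30.0, with 10 of 10 spots above background and an SD of 0.13 between spots on the log2 scale. On the other 11 arrays the signal lay between 2.43 and 5.74 and none of its spots was above background. The highest of these was the injected nerve of nude rats, at 5.74, and the contralateral nerves gave 2.93 in wild-type and 2.88 in nude rats. Relative to the array median, the level was -0.27 on the injected nerve of wild-type rats and -3.50 on the contralateral nerve. Since the latter is under the floor of its array, Il6 was at least 4.66-fold higher after the injection (log2 ratio 2.22). This ratio exceeded those of 99.1% of the genes measured in the wild-type nerve. With another background correction (normexp with an offset, then quantile normalization), which draws dim signals together, the log2 ratio was 0.56. No ratio could be formed for Il6 in the nude nerve, the DRG or the cord. In nude rats its level was -1.42 on the injected nerve and -4.09 on the contralateral one. Neither was above background, so a rise of Il6 in the nude nerve is neither shown nor excluded.

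Over all genes, the log2 ratio had a median of -0.05 in the wild-type nerve and -0.39 in the nude nerve, and a member's ratio is read against that median. In the wild-type nerve all 10 members were measured on at least 1 of the 2 arrays. Of these, 7 lay above 0 and 3 below, with a median of 0.39. Il6 was the 1 member past 2-fold upward and 0 were past it downward, where 5.84% of all measured genes were past it upward and 4.83% downward. In the nude nerve 8 members were measured, 3 above 0 and 5 below, with a median of -0.37. None was past 2-fold upward and 2 were past it downward, Cntf and Lifr, where 7.6% of all genes were past it upward and 14.4% downward. With 1 array per condition none of these ratios has a test.

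**Figure D2:**
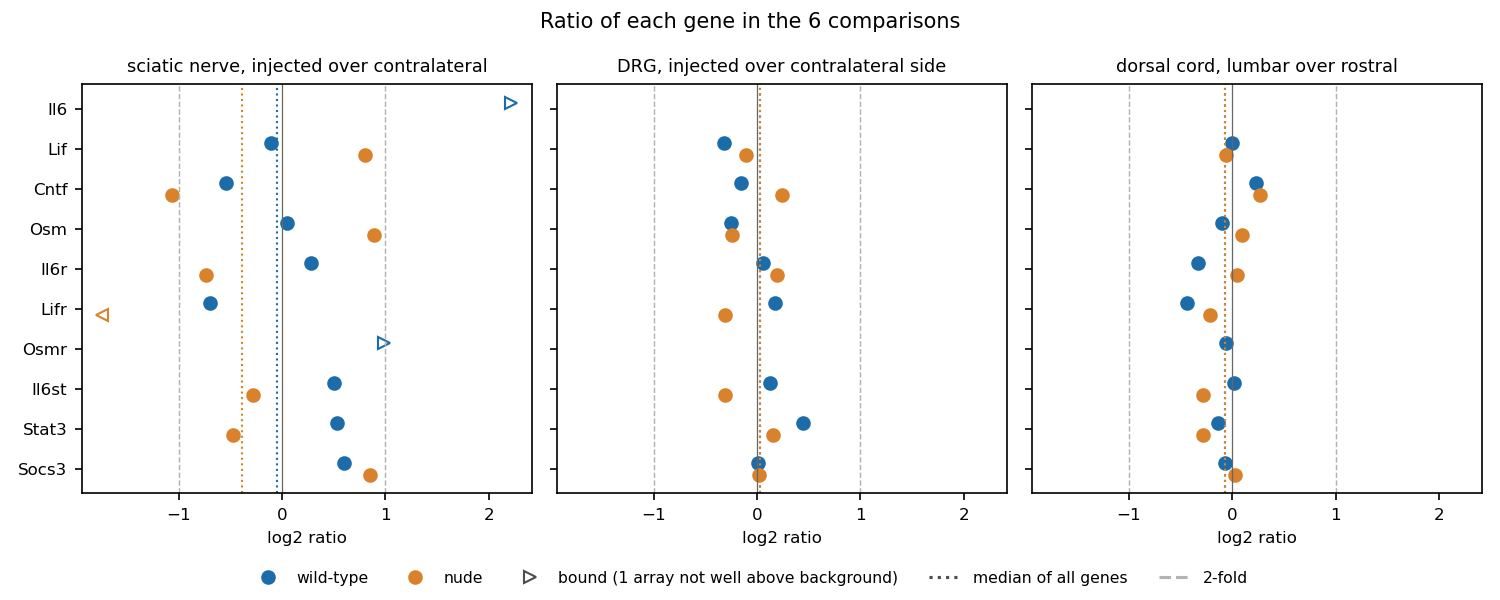
Log2 ratio of each gene (x axis) in nerve, DRG and cord for wild-type (blue) and nude rats (orange); arrowheads are bounds, dotted lines the median of all genes and dashed lines 2-fold. The members spread from -1.74 to 2.22 in the nerve and from -0.44 to 0.44 in DRG and cord.

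Among the other ligands, Cntf, a survival factor for motor and sensory neurons, was lower on the injected nerve in both rat types. Wild-type rats had a signal of 3455 on the injected nerve and 4593 on the other, and nude rats 1360 and 9086. The levels were 6.58 against 7.12 in wild-type and 6.47 against 7.53 in nude rats, so both injected nerves lay below both contralateral nerves. The log2 ratio was -0.54 in the wild-type nerve, with an SE of 0.01 over spots, and -1.07 in the nude nerve, with an SE of 0.02. This SE covers the copies of a probe on an array and says nothing of the spread between rats. Relative to the median of all genes the ratios were -0.49 and -0.68, and the nude ratio was then under 2-fold. The markers of myelinating Schwann cells, the known store of Cntf, were lower as well, with 6 of 6 below 0 in both rat types and median log2 ratios of -1.13 and -1.67. Their part in the Cntf ratios was not tested. In whole tissue, fewer cells of a type and less RNA per cell cannot be told apart.

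Lif and Osm, both ligands of injury responses, lay nearer to the floor of the arrays. In wild-type rats Lif was at 0.53 on the injected nerve and 0.64 on the contralateral one, and in nude rats at 0.96 and 0.15. Osm was at -0.26 and -0.30 in wild-type rats, and at 0.02 and -0.87 in nude rats. Both were close to equal between the wild-type nerves, with log2 ratios of -0.11 for Lif and 0.05 for Osm. In the nude nerve the ratios were 0.80 for Lif, with an SE of 0.24 over 2 spots, and 0.89 for Osm, with an SE of 0.20. Relative to the median of all genes these were 1.19 and 1.28, past 2-fold. Before scaling, however, the signals on the nude injected nerve were the lower ones, 29.9 against 54.6 for Lif and 15.6 against 26.8 for Osm. Over the 12 arrays, which differ in tissue as well as brightness, Pearson's r of the level with the log2 median signal of the array was -0.87 for Lif, -0.71 for Osm and -0.71 for Socs3. It was -0.70 for Il6, -0.55 for Cntf, -0.53 for Il6st, -0.36 for Il6r, -0.34 for Osmr, 0.01 for Lifr and 0.04 for Stat3. Each level is the log2 signal less that same array median, so a negative r is partly built in. Il6 was at the floor on most arrays, so its r mainly reflects the floors and medians of the arrays. Whether the difference in array brightness has a part in the nude ratios of the members was not tested.

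The receptor chains differed from each other. Osmr, a chain of the oncostatin M receptor, was above background on the injected nerve of wild-type rats, with a signal of 17.4, and not on the contralateral nerve, with 8.06. It was thus at least 1.98-fold higher (log2 ratio 0.99), just short of 2-fold. The ratio was taken from the measured signal, which lay above the floor, and the 2 contralateral spots had an SD of 0.64. It passed 2-fold with the 75th percentile, with cyclic loess, or relative to the median of all genes (1.04). Its lowest value among the alternatives was 0.13. In nude rats Osmr was above background on the contralateral nerve (13.7, with 1 of 2 spots above background) and not on the injected one (6.01). The levels ran the other way, at -1.84 on the contralateral and -1.36 on the injected nerve, so no bound could be formed.

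Lifr, the chain that LIF and CNTF use beside gp130, was lower on both injected nerves. Its signal was 31.3 against 46.5 in wild-type and 7.35 against 78.4 in nude rats, where the spot on the injected nerve was not above background. The log2 ratio was -0.70 in wild-type rats. In nude rats Lifr was at least 3.34-fold lower (log2 ratio -1.74, taken from the measured signal, or -1.35 relative to the median of all genes), a call that was lost after normexp, with -0.51. It rests on 1 spot per array.

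Il6r, the IL-6 binding chain, had levels of 1.87 (injected) and 1.59 (contralateral) in wild-type nerves and of 1.43 and 2.17 in nude nerves. The log2 ratio was 0.28 with an SE of 0.05 over spots in wild-type rats and -0.74 with an SE of 0.05 in nude rats. Il6st, which every ligand of the family needs, was at 4.67 and 4.17 in wild-type rats (log2 ratio 0.50) and at 4.36 and 4.64 in nude rats (-0.28). The sign of the nude Il6st ratio turned under each of the other scalings, and relative to the median of all genes it was 0.11.

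Stat3 and Socs3 stand downstream of the receptors. On the wild-type nerves Stat3 had levels of 4.33 after the peptide and 3.80 after PBS, a log2 ratio of 0.53. In nude rats it was at 3.79 and 4.26, a log2 ratio of -0.47, or -0.08 relative to the median of all genes. Socs3, a direct target of STAT3 and the feedback inhibitor of gp130, was at 1.36 and 0.77 in wild-type rats (log2 ratio 0.60, SE 0.08 over spots) and at 1.04 and 0.19 in nude rats (0.85, SE 0.10). It was the member above 0 by at least 0.5 in both rat types, yet the signals of the nude nerves were 31.7 after the peptide and 56.1 after PBS. In the wild-type nerve the signals were 92.9 and 56.3, so there Socs3 was brighter on the injected side before scaling as well.

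The STAT3 target and acute-phase genes, a list of 35 that leaves out the members, were higher in number on the injected nerve. In wild-type rats 31 were measured and 25 lay above 0, beside 45.0% of all genes. Of the 31, 13 were past 2-fold upward and 0 downward, beside 5.84% and 4.83% of all genes. Some of the 13, Lbp and Fgb among them, were above background on the injected nerve alone and could only count upward. The list was also chosen with earlier results of these data known, so its counts are no independent support. The median log2 ratio was 0.71 beside -0.05 over all genes. In nude rats 29 were measured and 17 lay above 0, beside 28.2% of all genes. Of the 29, 7 were past 2-fold upward and 1 downward, beside 7.6% and 14.4% of all genes. The median was 0.11 beside -0.39. The highest in the wild-type nerve was Lbp, which carries bacterial lipopolysaccharide to its receptor, with a bound of 4.20 in wild-type and a ratio of 3.73 in nude rats. Hp, the hemoglobin scavenger haptoglobin, followed with 2.93 and 1.12, and Il1rn, the antagonist of the interleukin-1 receptor, with 2.71 and 0.44. Ccl2, which draws monocytes, gave 2.36 and 2.15, and Timp1, an inhibitor of matrix metalloproteinases, gave 2.16 and 2.14. These genes have other regulators than STAT3, and several are abundant in leukocytes.

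**Figure D3:**
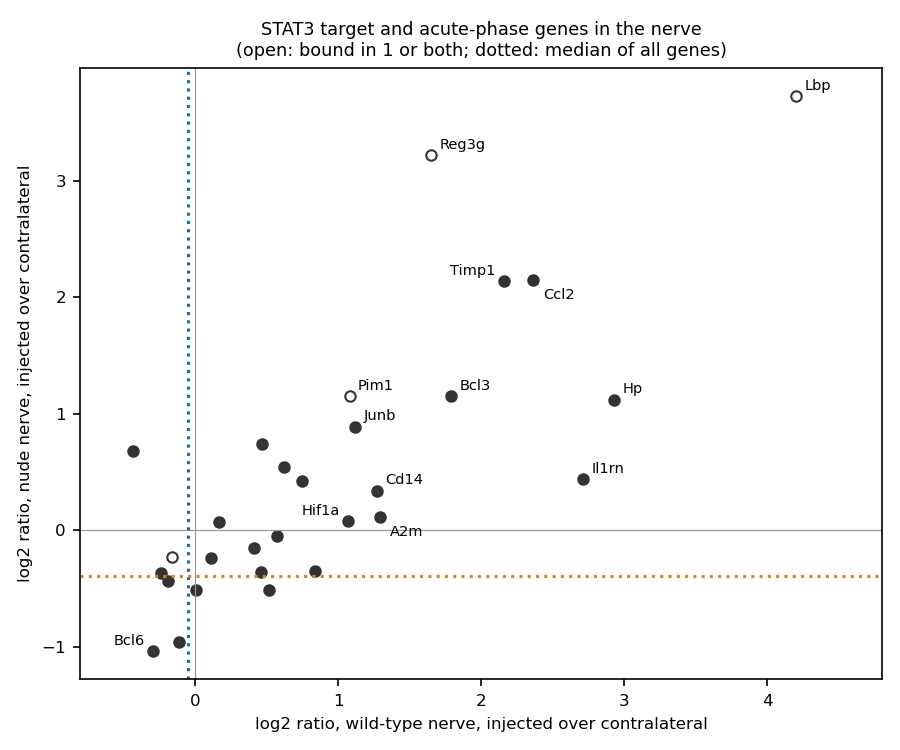
Log2 ratio of STAT3 target and acute-phase genes in the wild-type nerve (x axis) and the nude nerve (y axis), 1 point per gene with a ratio in both; open points are bounds and dotted lines mark the median of all genes. Lbp, Ccl2 and Timp1 lay above 2 in both rat types, and Hp and Il1rn lay further out in wild-type than in nude rats.

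Markers of other cells differed in the nerve too. In the wild-type nerve 10 of 10 macrophage markers lay above 0, with a median log2 ratio of 0.68 and a summed signal of 474 times the array median after the injection against 266 times in the contralateral nerve. In the nude nerve 6 of 10 lay above 0, with a median of 0.19, and the sums were 373 and 301. Neutrophil markers had medians of 2.48 over 4 measured genes in wild-type and 2.23 over 3 in nude rats, with sums of 12.6 against 1.94 and 7.86 against 2.15, while Elane and Mmp8 were above background on none of the 4 nerve arrays. The wild-type ratios of Camp and Cxcr2 were bounds. Of 10 T cell markers, 8 were measured in the wild-type nerve, with 7 above 0, 3 at least 2-fold higher (Cd8a, Cd247 and Cd2) and a median of 0.50, and the sums were 16.1 against 11.9. Cd8a, Cd2 and Lck were above background on the injected nerve alone, so theirs are bounds that could only count as above 0. In nude rats, which lack a thymus, 5 were measured, with 2 above 0 and 1 at least 2-fold higher (Cd3d). Their median was -0.44 beside -0.39 over all genes, and the sums were 12.25 against 8.87. Of all genes, 5.84% were at least 2-fold higher in the wild-type nerve and 7.6% in the nude nerve. Red blood cell markers had medians of 2.03 and 2.87 over 4 genes. Skeletal muscle markers had a median of 1.33 over 9 genes in the wild-type nerve and -0.38 over 6 in the nude nerve, and adipocyte markers were lower in both, at -1.57 and -2.28. The part of these cells in the ratios of the members was not tested.

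Among the other ligands of the family, Ebi3, a subunit of IL-27 and IL-35, gave log2 ratios of 1.42 in wild-type and 0.69 in nude nerves. Ctf1 (cardiotrophin-1) gave -0.61 and -0.75, and Il11 gave -0.31 and 1.25. Il11ra1, the IL-11 receptor chain and the 1 further receptor measured in both nerves, gave -0.46 in wild-type and -0.97 in nude rats.

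Of 18 kinases and transducers, 0 were at least 2-fold different in the wild-type nerve, where 5.84% of all genes were higher and 4.83% lower. Of the 18, 4 lay above 0, beside 45.0% of all genes, and their median was -0.17 beside -0.05. The largest ratios were those of the phosphatase Ptpn11 (-0.88), which links gp130 to the MAP kinases, and Jak2 (0.77), followed by Pik3r1 (-0.61), Shc1 (0.53) and Akt1 (-0.42). In the nude nerve 6 of the 18 were at least 2-fold lower and 0 higher, where 14.4% of all genes were lower and 7.6% higher. Their median was -0.57 beside -0.39 over all genes. Of 9 inhibitors measured in the wild-type nerve, 6 lay above 0 and 1 was at least 2-fold higher, with a median of 0.41. That gene was Ptpn1 (1.32), a tyrosine phosphatase acting on Janus kinases. Ptpn2 gave 0.92, Ptpn6 0.66, Socs1 a bound of 0.53 and Socs5 0.41. In the nude nerve 7 were measured, with 1 at least 2-fold higher and a median of 0.01.

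In the DRG 8 members were measured in each rat type, all but Il6 and Osmr. None of the 8 was at least 2-fold different in either rat type, where 1.78% of all genes were so in wild-type and 2.53% in nude rats. The members spread from -0.32 to 0.44 in wild-type and from -0.31 to 0.24 in nude rats. The largest was Stat3 in wild-type rats, at 4.27 against 3.83, a log2 ratio of 0.44 that exceeded those of 91.3% of genes. In nude rats Stat3 was at 3.79 and 3.64 (0.15). Socs3 was near equal between sides, with 0.01 and 0.02. Of the STAT3 target and acute-phase genes, 2 were at least 2-fold higher in the wild-type DRG (1.2% of all genes), Reg3b (1.51), a secreted lectin made by injured sensory neurons, and Nfil3 (a bound of 1.10). In the nude DRG (1.75% of all genes) these were Serpina3n (a bound of 1.29), Cebpb (1.14) and Hp (1.08), where neutrophil markers had a median of 1.84 and skeletal muscle markers one of 1.22. The part of those cells was not tested.

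In the cord 9 members were measured in wild-type rats, all but Il6, and 8 in nude rats, all but Il6 and Osmr. No measured member was at least 2-fold different there either, beside 2.51% of all genes in wild-type and 2.61% in nude rats. The ratios lay between -0.44, for Lifr in wild-type rats, and 0.27, for Cntf in nude rats, and Cntf was the member above 0.2 in both (0.23 in wild-type). Of the STAT3 target and acute-phase genes, Reg3b was higher in the lumbar than in the rostral cord of wild-type rats (2.41), and Fgb, a fibrinogen chain, was lower (a bound of -1.40). Gfap, the intermediate filament of astrocytes, was lower in both rat types, at -1.52 and -1.10. Of all genes, 1.12% were past 2-fold upward and 1.39% downward in the wild-type cord, and 1.07% downward in the nude cord. Upward, 172 of 11135 genes were past 2-fold in the nude cord. The lumbar sample also held more transcript of myelinating Schwann cells, with 5 of 6 markers at least 2-fold higher in each rat type, medians of 2.42 and 1.82, and summed signals of 385 against 90.0 times the array median in wild-type and 315 against 100 times in nude rats. Lumbar and rostral cord differ by level as well as by the injected root, which cannot be told apart.

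The levels were also compared between tissues. Of the 10, 9 were above background on at least 4 of 12 arrays and were tested with limma among 11443 genes, with rat type and side as terms. Il6 was not tested. The 4 arrays of a tissue are different conditions from only 2 pools of rats, so the p-values measure the spread between these arrays. Against the cord, 7 members were higher in nerve and 0 lower, where 36% of all genes were higher in nerve and 30.5% higher in cord. A total of 5 were higher in DRG than in cord and 0 lower, beside 26% and 36.1%. Between nerve and DRG, 4 were higher in nerve and 1 in DRG, beside 34.1% and 13.9%.

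**Figure D4:**
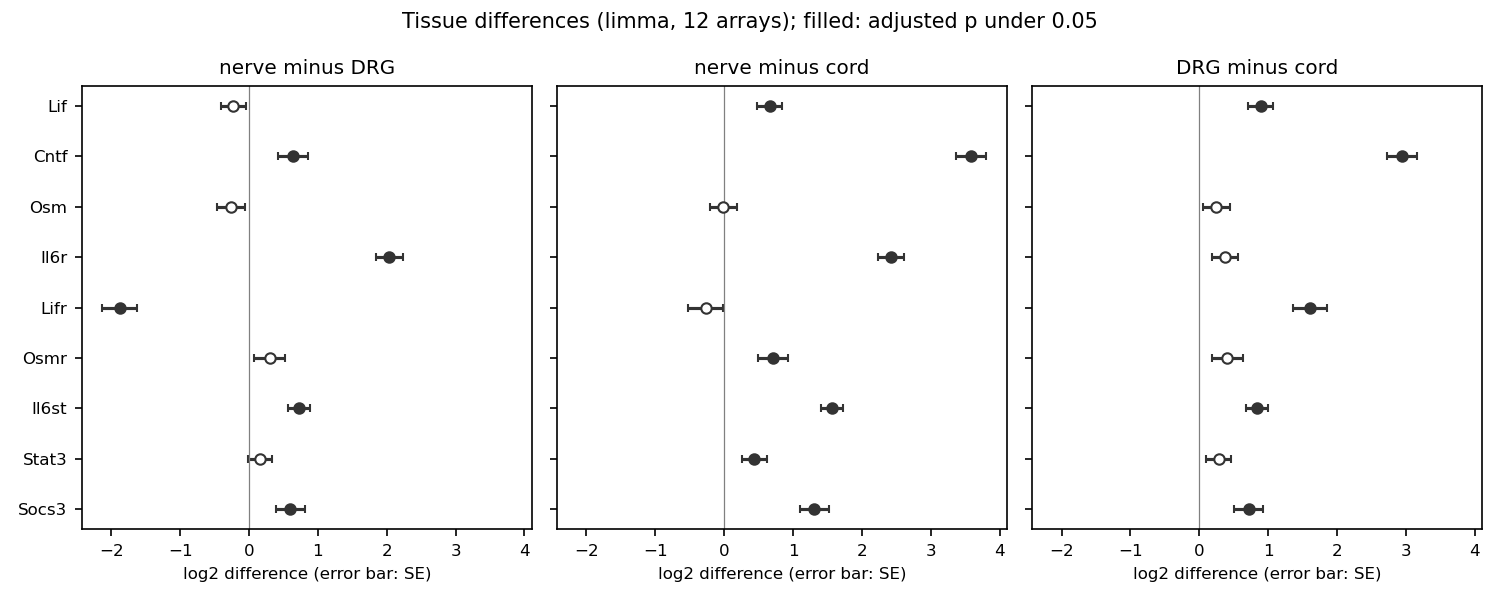
Log2 difference between tissues for the 9 tested genes (x axis, limma over 12 arrays; bars are SE); filled points had an adjusted p under 0.05. Cntf was higher in nerve and DRG than in cord, Il6r was higher in nerve than in both, and Lifr was higher in DRG than in both.

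Cntf had the largest difference between tissues among the members. Its level lay between 6.47 and 7.53 on the 4 nerve arrays, between 6.03 and 6.49 on the DRG arrays and between 3.13 and 3.52 on the cord arrays. It was 12.0-fold higher in nerve than in cord (log2 difference 3.59, SE 0.22, adjusted p = 8.15e-08) and 7.71-fold higher in DRG than in cord (2.95, SE 0.22, adjusted p = 1.19e-06). The nerve and DRG arrays overlapped. Their difference of 0.64 (SE 0.22, adjusted p = 0.0326) lost its call in 14 of 26 alternatives, among them each change of scaling and both fits that take account of the slide.

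Il6r was higher in nerve than in either other tissue. On the 4 nerve arrays it lay between 1.43 and 2.17, on the DRG arrays between -0.46 and -0.02 and on the cord arrays between -0.83 and -0.34. It was 4.11-fold higher in nerve than in DRG (log2 difference 2.04, SE 0.19, adjusted p = 8.22e-06) and 5.36-fold higher than in cord (2.42, SE 0.19, adjusted p = 6.58e-07). DRG and cord overlapped, with a difference of 0.38 (SE 0.19, adjusted p = 0.107).

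Lifr had another order, with DRG first. It lay between 1.72 and 2.03 on the DRG arrays, between 0.05 and 0.49 on the cord arrays and between -1.06 and 0.68 on the nerve arrays. The DRG level was 3.68-fold that of nerve (log2 difference nerve minus DRG -1.88, SE 0.25, adjusted p = 0.000117) and 3.04-fold that of cord (1.61, SE 0.25, adjusted p = 0.000253). Nerve and cord differed by -0.27 (SE 0.25, adjusted p = 0.356).

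Il6st followed the order nerve, DRG, cord without overlap, at 4.17 to 4.67, 3.57 to 3.88 and 2.72 to 3.19. The difference of nerve and cord was 1.57 (SE 0.16, adjusted p = 5.3e-06), that of DRG and cord 0.84 (SE 0.16, adjusted p = 0.000978) and that of nerve and DRG 0.73 (SE 0.16, adjusted p = 0.00321). The call between DRG and cord was lost in 2 of 26 alternatives and that between nerve and DRG in 4, the arrays of slide 1 alone among them in both cases. Socs3 lay between 0.19 and 1.36 in nerve, 0.09 and 0.41 in DRG and -0.60 and -0.36 in cord. It was 2.49-fold higher in nerve than in cord (1.31, SE 0.21, adjusted p = 0.000186) and 1.64-fold higher in DRG than in cord (0.72, SE 0.21, adjusted p = 0.0116), and the latter call was lost in 4 of 26 alternatives, slide 1 alone among them. Its difference between nerve and DRG, 0.60 (SE 0.21, adjusted p = 0.0357), lost its call in 13 of 26 alternatives, and with the slide as a term it was 0.25.

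Lif was higher in DRG than in cord by 0.89 (SE 0.18, adjusted p = 0.00118) and in nerve than in cord by 0.66 (SE 0.18, adjusted p = 0.00612). The call between nerve and cord was lost in 4 of 26 alternatives, both fits by slide among them, where it was 0.54 and 0.56, and that between DRG and cord in 1. Osmr, above background on 2 nerve, 1 DRG and 2 cord arrays and otherwise at its measured signal or the floor, differed between nerve and cord by 0.71 (SE 0.22, adjusted p = 0.014), a call lost in 5 of 26 alternatives with a lowest value of 0.05. Stat3 was the most even member past the threshold, at 3.79 to 4.33 in nerve, 3.64 to 4.27 in DRG and 3.46 to 3.74 in cord. Its difference of nerve and cord, 0.44 (SE 0.18, adjusted p = 0.0499), lost its call in 17 of 26 alternatives. For Osm no tissue difference passed the test. The differences were -0.26 (SE 0.20) between nerve and DRG, -0.01 (SE 0.20) between nerve and cord and 0.25 (SE 0.20) between DRG and cord.

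The other genes of the pathway were read on the same scale. Of 29 tested STAT3 target and acute-phase genes, 20 were higher in nerve than in DRG and 2 lower, and 19 were higher in nerve than in cord and 3 lower. Of 9 inhibitors, 6 were higher in nerve than in DRG and 7 higher in nerve than in cord, with 0 lower in either. Of 18 kinases and transducers, 8 were higher in nerve than in DRG and 1 lower, and 7 were higher in nerve than in cord and 2 lower. Of all genes, 34.1% were higher in nerve than in DRG and 13.9% lower, and 36% were higher in nerve than in cord and 30.5% lower, so the shares of the kinases were near those of all genes in the higher direction. Ctf1 was higher in nerve than in cord by 1.48 (adjusted p = 7.39e-06), and Cntfr, the CNTF binding chain, did not pass the test between any tissues, with differences of 0.14, -0.01 and -0.16.

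For each member above background on all 12 arrays, the 3 genes with the most similar levels were found among 8367 genes by Pearson's r over the 12 arrays, which share tissue and pools. Those of Cntf were Emp2 (0.997), Stard9 (0.996) and Prrg4 (0.995), and those of Il6r were Erp44 (0.992), Rpl5 (0.991) and Eef1a1 (0.990). Il6st was most like RGD1309362 (0.985), Irf1 (0.984) and Col6a2 (0.984), and Socs3 most like Hps1 (0.977), Ormdl1 (0.970) and Fn3krp (0.970). Lif was most like Prima1 (0.984), Gpatch2l (0.976) and Rdh12 (0.975), and Osm like Pwwp2b (0.925), Abtb2 (0.919) and Atoh7 (0.909). The lowest values were those of Stat3, with Trabd (0.871), Gtf3c2 (0.865) and Ppp4c (0.854).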

How the data were processed

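Total RNA was labelled with Cy3 and hybridised to SurePrint G3 Rat GE 8x60K arrays. The intensity values are the processed signals that the authors deposited from Agilent Feature Extraction, after its local background subtraction and correction of trends across the array. The file headers name version 10.7.3.1 and the processing notes 10.5. The log2 values are the authors' normalized values made in GeneSpring GX, whose sorted columns differ by at most 0.00153, and they were used as an alternative. Per the file headers, the other columns used are flags of 0 or 1 for each spot. The array design follows genome build rn4.

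Spots flagged as outliers were left out, log2 signals of the spots of a probe were averaged, and the array median was subtracted. The brightest probe stood for a gene, and a probe was well above background when at least 0.5 of its used spots were. Names came from RefSeq accessions matched to GRCr8. Ratios within a tissue and rat type compare 1 array with 1 array. Tissues were compared with limma 3.58.1 (R 4.3.3), lmFit and eBayes with Benjamini-Hochberg adjustment over 11443 genes. On simulated data for nerve minus cord with 11443 genes, 55 of 100 genes changed by 1 on the log2 scale and 95 of 100 changed by 2 were called, and 3 of 11243 unchanged ones. The simulated arrays were independent and few of their genes were changed. The real arrays share 2 pools, and 36% of genes were called higher in nerve and 30.5% higher in cord. The simulated shares therefore do not carry over to the real comparison. The number of arrays limits the precision. The methods' t-test needs replicates and was not run.

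The members and lists were chosen with earlier results of these data known. Named were the members, the 5 largest wild-type nerve ratios of each pathway list, its genes at least 2-fold different in DRG or cord, and for each member the 3 most similar genes. A gene that this rule takes is not reported here. Alternatives were other scalings, background correction, filters, probe rules, thresholds and subsets of arrays, and, chosen after seeing the data, ratios relative to the median of all genes and fits by slide. Labels and paper differ on the number of rats in a pool and on the wild-type strain and day, and the labels were followed.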

Additional observations from a re-analysis of the deposited data

Results flagged for a closer look

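Some members moved in opposite directions in the 2 rat types, by at least 0.1 on the log2 scale both before and after the median ratio of all genes was taken off. Il6r in the nerve gave 0.28 in wild-type rats and -0.74 in nude ones. Cntf in the DRG had -0.16 and 0.24, and Lifr in the DRG had 0.17 and -0.31. The difference between rat types was not tested, since each ratio rests on 1 array per side, and it cannot be told apart from strain, day after injection and, in DRG, slide. In the nerve the signs were also opposite for Lif, with -0.11 and 0.80, Il6st, with 0.50 and -0.28, and Stat3, with 0.53 and -0.47, but relative to the median of all genes the smaller ratio of Lif and of Stat3 was within 0.1 of 0 and the sign of nude Il6st turned.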

How the results depend on the processing

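No paired analysis was possible because each group holds 1 array, so that replicate numbers pair nothing, but the tissue fit has the pool of rats (rat type) as a term. The count of members at least 2-fold different in the wild-type nerve, 1, was 2 with the 75th percentile, with cyclic loess and relative to the median of all genes (chosen after seeing the data), 0 with normexp or with both arrays required above background, and 4 at 1.5-fold. In the nude nerve the count of 2 was 4 with the 75th percentile and relative to the median of all genes, 1 with quantile normalization, cyclic loess, the authors' normalized values or both arrays above background, 0 with normexp and 6 at 1.5-fold. Cntf in the nude nerve then lay between -1.07 and -0.68, and Lif, Osm and Socs3 passed 2-fold in the settings that gave 4. Of all genes in the nude nerve, 777 were at least 2-fold higher and 1468 lower, against 1234 and 643 with the 75th percentile and 869 and 884 with quantile normalization. In DRG and cord the count stayed at 0 under each alternative. The count for nerve and DRG, 5, was 3 with the 75th percentile, normexp, no filter and floor, control arrays only, wild-type arrays only or the slide as a term, 2 with nude arrays only or slide 1 only (the last pair of slide settings added after seeing the data), and between 3 and 5 with 1 array left out (3 without the wild-type contralateral DRG). For nerve and cord, 7 became 4 with control arrays only and between 5 and 7 with 1 array left out. For DRG and cord, 5 became 8 with the 75th percentile, 3 on slide 1 only, 2 with nude arrays only, and between 5 and 6 with 1 array left out. The cause was not tested. The differences of Cntf in nerve and in DRG against cord, of Il6r in nerve against both other tissues, of Lifr in DRG against both, and of Il6st and Socs3 in nerve against cord kept their call in all 26 alternatives. No called ratio or difference turned its sign. Il6 and Osmr were limited by signal over background.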

Other observations

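Markers of injured sensory neurons were read beside the pathway in the DRG. In wild-type rats 7 of 8 measured lay above 0, with a median log2 ratio of 0.40 on the injected side, and in nude rats 6 of 8, with a median of 0.28. At least 2-fold higher in both rat types were Gal, the neuropeptide galanin, with 1.79 and 1.64, and Vip, vasoactive intestinal peptide, with bounds of 4.02 and 4.45, both named after their values were seen. Of all genes, 1.2% were at least 2-fold higher in the wild-type DRG and 1.75% in the nude DRG. Npy lay below 0 in both rat types, with -0.44 and -0.23, and Gadd45a in nude rats, with -0.18. Markers of repair Schwann cells in the nerve had a median of 0.54 over 4 genes in wild-type and 0.35 over 4 in nude rats, and fibroblast markers had 0.03 and 0.01 over 6. With 1 array per condition none of these ratios has a test.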
